A study of Fragaria vesca with 8 samples.

Results

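This group consists of 144 genes of the diploid strawberry *Fragaria vesca* whose transcripts were less abundant in fruits overexpressing *FvVND4c* than in the matching empty-vector fruits, while fruits overexpressing *FvMYB46* differed little from theirs. The genes were selected from the read counts, expressed as CPM, the count of a gene scaled by the summed counts of its library. A gene was included when the log2 ratio of the group means, each with 0.5 CPM added, was at most -1 for FvVND4c against its control and between -0.5 and 0.5 for FvMYB46 against its control, and when the 4 control libraries together held more than 3 counts. The genes of one stretch of chromosome 4 and one of chromosome 5 were left out by the rule. Of 34009 genes in the count files, 21744 had more than 3 control counts, 21666 of these lay outside both stretches, and 144 met the limits. Because both overexpression comparisons were used for the selection, the values of these comparisons describe the genes and were not tested, and comparisons that use the same libraries again are given as descriptions too.

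VND proteins are NAC-domain transcription factors that in *Arabidopsis* switch on the differentiation of xylem vessel cells and the deposition of their secondary cell wall. MYB46 acts below these NAC proteins in *Arabidopsis*, and together with its close relative MYB83 it activates genes for cellulose, xylan and lignin synthesis.

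RNA was sequenced from fruits of the white-fruited "Yellow Wonder" strawberry. The fruits had been injected with agrobacterium as they turned from green to white and were collected 7 days later. The 4 groups were *35S:FvVND4c* overexpression, its empty-vector control, *35S:FvMYB46* overexpression and its own empty-vector control, with 2 libraries each and at least 5 fruits per treatment. Both transgenes were driven by the constitutive 35S promoter and were expressed transiently, so that transformed and untransformed cells were sampled together, and all fruits, controls included, carried the bacteria. The labels do not assign single fruits to libraries. Standard errors and adjusted p-values therefore measure only how far libraries within groups differ, which may be technical. For each gene the 4 groups share a common estimate of this spread, so it is assumed to be equal in all of them.

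The counts summed to between 9765362 and 12845942 per library, and 3 counts, taken as the limit that a count of 0 allows, corresponded to between 0.234 and 0.307 CPM. Replicate libraries differed by more than counting noise in every group. Chi-square over its degrees of freedom was 2.44 in FvVND4c controls, 2.80 in FvMYB46 fruits, 7.57 in FvVND4c fruits and 16.5 in FvMYB46 controls. The spread was thus not equal in the groups. Standard errors and calls that use the FvMYB46 controls may understate the spread of that group, and how far was not tested. None of the 34009 identifiers matched the gene table at hand, so that the genes are given by identifier and position in genome v4.0.a2, without name, role or sequence, and neither the tissue nor the transgenes could be checked by marker genes.

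The log2 ratio of FvVND4c to its control reached down to -4.29 over the 144 genes and had a median of -1.16, against a median of -0.12 over all 21666 genes. A ratio between -1.1 and -1 was found for 51 genes, 18 were at -1.5 or lower and 2 at -2 or lower. In fruit tissue sequenced in bulk, fewer cells of a type and less RNA per cell cannot be told apart. The ratio for FvMYB46 against its control had a median of 0.01, and 73 genes lay above 0 and 71 below. When library totals were scaled by TMM, a scaling that assumes most genes to be unchanged, the FvVND4c ratio of all genes moved up by 0.11 on the log2 scale, and 43 of the 144 genes then lay above -1.

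The genes were expressed at low to moderate levels. Their median level was 1.11 CPM in FvVND4c fruits and 3.46 CPM in FvVND4c controls, and 1.80 CPM in FvMYB46 fruits and 1.93 CPM in FvMYB46 controls. Over all 21666 genes, these medians were 10.3 CPM in FvVND4c fruits, 11.1 CPM in FvVND4c controls, 11.5 CPM in FvMYB46 fruits and 10.4 CPM in FvMYB46 controls. In FvVND4c fruits, 69 of the 144 genes were below 1 CPM, and 6 had no count in either library. In FvVND4c controls, 11 genes were below 1 CPM, 103 were between 1 and 10 CPM and 30 were at 10 CPM or more, while 51.8% of all genes reached 10 CPM. Per length, on the TPM scale of the authors, the 113 genes with a TPM value had a median of 2.04 TPM in FvVND4c fruits and 5.5 TPM in FvVND4c controls, against 17.3 TPM for all genes in FvVND4c controls.

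**Figure D1:**
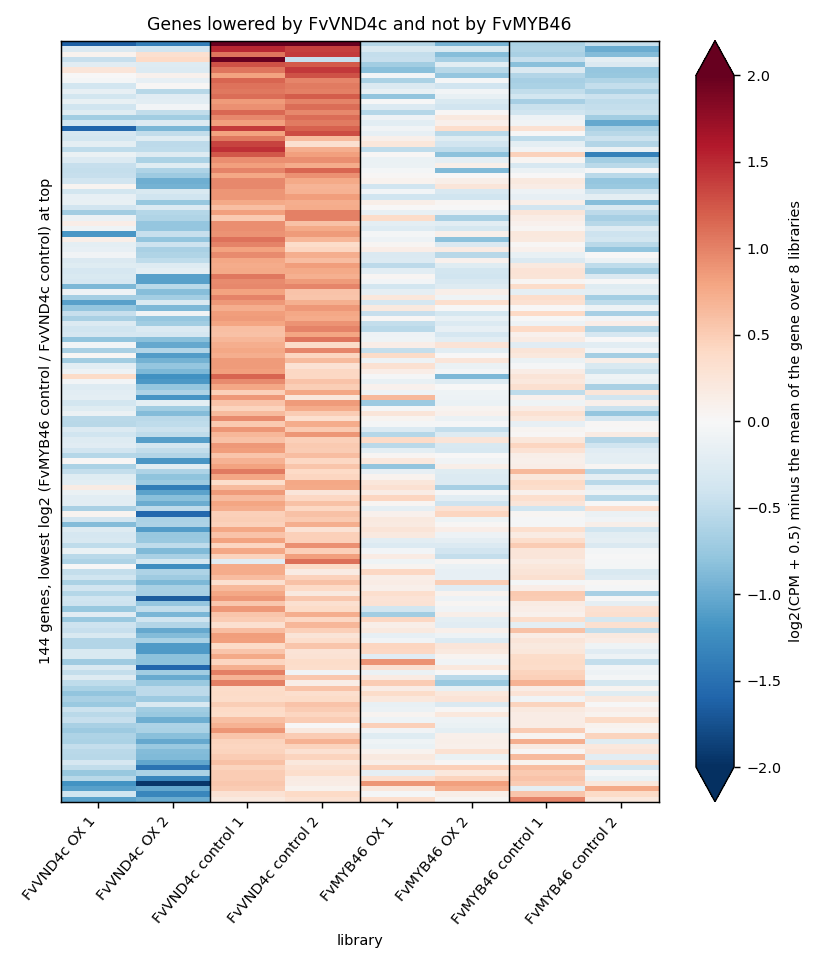
Heat map of the 144 genes (rows, those with the lowest ratio of FvMYB46 control to FvVND4c control at the top) in the 8 libraries (columns). Colour gives log2(CPM + 0.5) minus the mean of the gene over the 8 libraries, and is limited to 2 in either direction. Both FvVND4c control libraries are red in nearly all rows, and the FvVND4c libraries are the bluest towards the bottom.

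The FvMYB46 controls received an empty vector like the FvVND4c controls, and their level for each gene places the difference in the FvVND4c experiment. For 122 of the 144 genes the mean of the FvMYB46 controls lay between that of the FvVND4c fruits and that of the FvVND4c controls. It lay at or below that of the FvVND4c fruits for 18 genes and above that of the FvVND4c controls for 4. On the log2 scale it was nearer to the FvVND4c fruits for 87 genes and nearer to the FvVND4c controls for 57. The log2 ratio of FvMYB46 controls to FvVND4c controls had a median of -0.71 over the 144 genes, against -0.04 over all genes, and was within 0.5 of 0 for 45 genes. The log2 ratio of FvVND4c fruits to FvMYB46 controls had a median of -0.54 over the 144 genes and -0.09 over all genes. Selection on a high level in the FvVND4c controls favours a lower level in any other group, and how much of these differences comes from it was not tested.

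**Figure D2:**
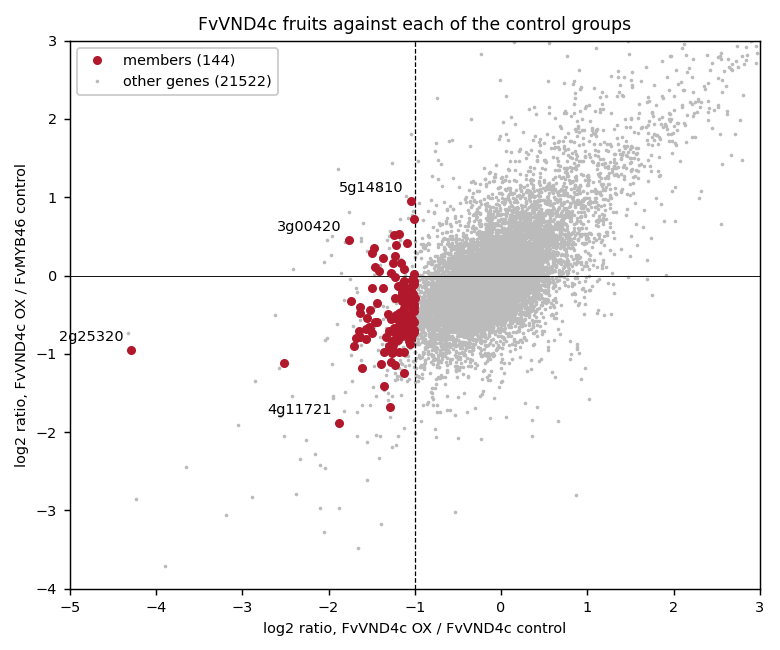
Log2 ratio of FvVND4c fruits to the FvVND4c controls (x axis) and to the FvMYB46 controls (y axis), for the 144 selected genes (large red points) and 21522 other genes (small grey points), of which 177 lie outside the plotted range. The dashed line marks the limit of -1 used for selection, and the red points spread from -1.89 to 0.95 on the y axis.

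By library, both FvVND4c libraries lay below both of their own controls for 143 of the 144 genes, a separation found for 40.0% of all genes. The exception was *FvH4_2g02480*, with 0.172 and 0.717 CPM in FvVND4c fruits and 4.06 and 0.168 CPM in FvVND4c controls, where a single control library carried the difference. They lay below both FvMYB46 control libraries for 77 genes (27.2% of all genes), below all 4 control libraries for the same number, 77 (18.1% of all genes), and below all 6 other libraries for 63 (9.00% of all genes). Both FvVND4c control libraries lay above all 6 other libraries for 109 genes, against 10.6% of all genes. Both FvMYB46 control libraries lay below both FvVND4c control libraries for 117 genes, against 29.0% of all genes. Combining these, 71 genes were set apart only by the FvVND4c controls (9.37% of all genes), 25 only by the FvVND4c fruits (7.72%), 38 by both (1.28%) and 10 by neither. Selection for a high level in FvVND4c controls and a low one in FvVND4c fruits shaped these classes, and nothing is read from their sizes. The FvMYB46 libraries were separated from their controls, in either direction, for 41 genes, against 58.1% of all genes. The limit on this ratio makes such a separation rarer, and how much of the difference comes from it was not tested.

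The edgeR quasi-likelihood fit across 18766 genes included 130 of the 144, and the other 14 had too few counts for it. Genes with an adjusted p (Benjamini-Hochberg) under 0.05 and a log2 fold change beyond 1 in either direction were called. For FvVND4c against its control, 70 of the 130 genes were called lower, against 1.11% of all genes tested, and the median fitted log2 fold change was -1.36, against -0.01 for all genes. This count was 22 without FvVND4c control 1, 27 without FvVND4c control 2, 23 without FvVND4c library 2 and 46 without FvMYB46 library 1. For FvMYB46 against its control, 0 of the 130 were called in either direction by edgeR, against 13.5% of all genes. The count was 0 also by DESeq2, and at an unadjusted p under 0.05 with the fold limit kept. Smaller changes could still have a low p, as in *FvH4_3g00420* with a fitted log2 fold change of 0.50 (edgeR, adjusted p 0.0256). Without FvMYB46 control 1, 1 gene was called. Both counts were bound to the selection and carry no information beyond it.

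Between the controls, 19 of the 130 genes were called lower in FvMYB46 controls than in FvVND4c controls, against 1.62% of all genes, with a median fitted log2 fold change of -0.74 and 0.01 over all genes. The count was 9 without FvVND4c control 1, 7 without FvVND4c control 2 and 44 without FvMYB46 control 1. For FvVND4c fruits against FvMYB46 controls, 7 of the 130 were called lower, against 0.991% of all genes, with a median of -0.63 and -0.04 over all genes. The count was 2 without FvVND4c library 2 and 11 without FvMYB46 control 2. These comparisons share libraries with each other and with the selection, and of the genes called lower against the FvVND4c controls, 17 were called between the controls and 6 against the FvMYB46 controls. Fruits of one experiment set against controls of the other also carry any difference between the experiments, which cannot be told apart from the transgene here.

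Genes set apart by a high level in the FvVND4c controls included the one with the lowest ratio. *FvH4_2g25320* (chromosome 2, 20591284-20593112, plus strand) had 0.688 and 0.922 CPM in FvVND4c fruits and 24.5 and 25.4 CPM in FvVND4c controls, and 1.98 and 1.44 CPM in FvMYB46 fruits and 1.88 and 2.18 CPM in FvMYB46 controls. Only the FvVND4c controls were above 3 CPM, and the FvVND4c fruits were also below the 4 libraries of the FvMYB46 experiment. Its fitted log2 fold change was -4.84 (SE 0.26) for FvVND4c fruits against their controls, -3.55 (SE 0.22) for FvMYB46 controls against FvVND4c controls, and -1.29 (SE 0.34) for FvVND4c fruits against FvMYB46 controls. The fold against the FvMYB46 controls was called by edgeR in 3 of the 8 fits that left out a library and was not called by DESeq2, and it reuses FvVND4c libraries on which the gene was selected.

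For *FvH4_3g00420* (chromosome 3, 222745-226119, minus strand), FvVND4c fruits had 17.9 and 16.8 CPM and FvVND4c controls 63.1 and 57.3 CPM, while FvMYB46 fruits had 17.8 and 17.6 CPM and FvMYB46 controls 14.2 and 10.7 CPM. The FvVND4c fruits were at the level of the FvMYB46 experiment, and above its controls. The fitted log2 fold change was -1.68 (SE 0.13) for FvVND4c fruits against their controls, but 0.54 (SE 0.14) against FvMYB46 controls, and -2.22 (SE 0.14) between the controls.

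*FvH4_7g15680* (chromosome 7, 13530836-13531738, minus strand) had 17.3 and 16.8 CPM in FvVND4c fruits and 49.5 and 48.2 CPM in FvVND4c controls, and 12.3 and 17.3 CPM in FvMYB46 fruits and 11.1 and 16.5 CPM in FvMYB46 controls. *FvH4_6g15820* (chromosome 6, 9874537-9876932, minus strand) had 31.3 and 39.9 CPM in FvVND4c fruits and 78.4 and 90.2 CPM in FvVND4c controls, and 34.0 and 31.5 CPM in FvMYB46 fruits and 30.1 and 29.5 CPM in FvMYB46 controls. In both genes the FvVND4c controls stood alone and the other 6 libraries lay close together. The fitted log2 fold change against the FvMYB46 controls was 0.35 (SE 0.21) for *FvH4_7g15680* and 0.31 (SE 0.15) for *FvH4_6g15820*.

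*FvH4_5g14810* (chromosome 5, 8409361-8410330, minus strand) followed the same form at a low level. It had 0.602 and 0.819 CPM in FvVND4c fruits and 1.71 and 2.27 CPM in FvVND4c controls, and 0.259 and 0.0848 CPM in FvMYB46 fruits and 0.171 and 0.0779 CPM in FvMYB46 controls. Here the FvVND4c fruits exceeded all libraries of the FvMYB46 experiment, each of which held 3 counts or fewer, so that no fold against the FvMYB46 controls is given.

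The other genes called lower in FvMYB46 controls than in FvVND4c controls had the same outline. *FvH4_4g36370* averaged 20.1 CPM in FvVND4c fruits and 53.0 CPM in FvVND4c controls, and 17.1 CPM in FvMYB46 controls. *FvH4_2g14690* averaged 17.2 CPM in FvVND4c fruits and 45.2 CPM in FvVND4c controls, and 19.3 CPM in FvMYB46 controls. *FvH4_2g21830* averaged 5.91 CPM in FvVND4c fruits and 14.0 CPM in FvVND4c controls, and 3.95 CPM in FvMYB46 controls. At lower levels, *FvH4_2g38200* averaged 2.11 CPM in FvVND4c fruits and 5.68 CPM in FvVND4c controls, and 1.32 CPM in FvMYB46 controls, and *FvH4_4g33890* averaged 1.88 CPM in FvVND4c fruits and 4.28 CPM in FvVND4c controls, and 0.942 CPM in FvMYB46 controls. These 5 genes were picked after their values were seen.

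**Figure D3:**
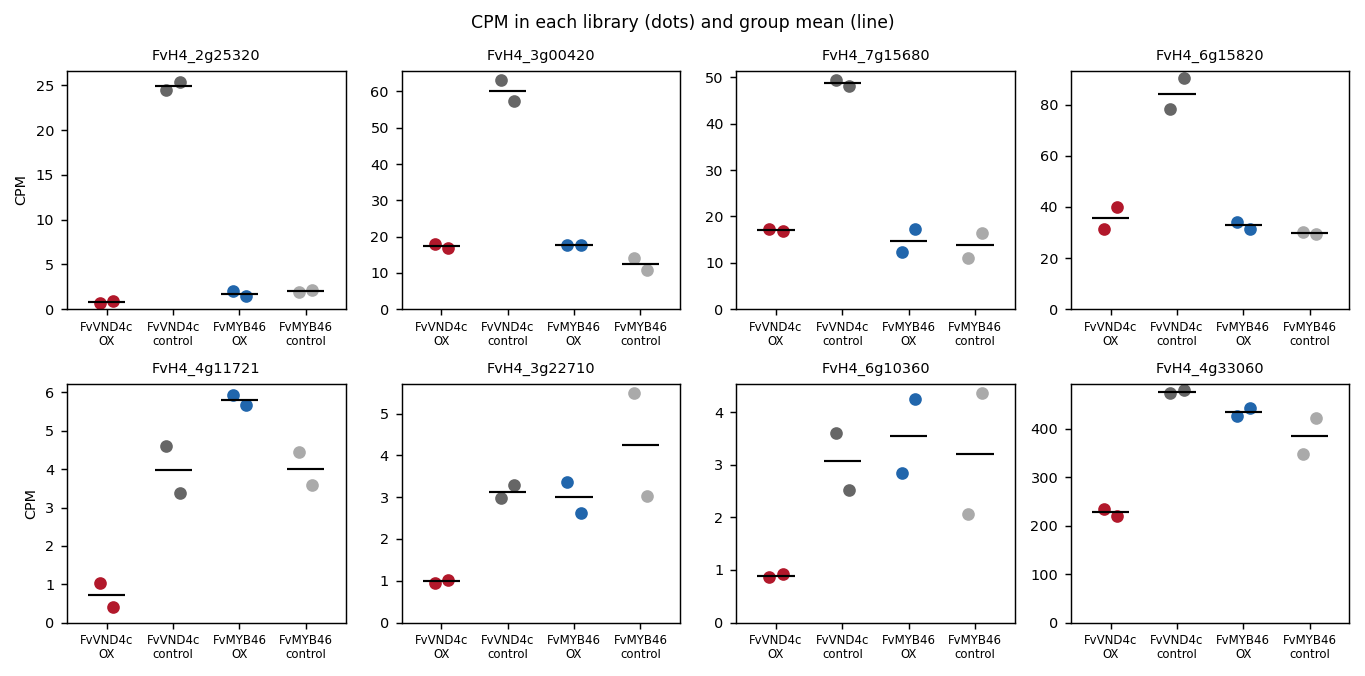
CPM of 8 genes in each library (points) with the group mean (line), on linear axes that start at 0. In the upper panels the FvVND4c controls stand above the other groups, as for FvH4_3g00420 with 63.1 and 57.3 CPM, and in the lower panels the FvVND4c fruits stand below the other groups, as for FvH4_4g11721 with 1.03 and 0.410 CPM.

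Other genes were set apart by a low level in the FvVND4c fruits themselves. *FvH4_4g11721* (chromosome 4, 15449914-15452222, plus strand) had 1.03 and 0.410 CPM in FvVND4c fruits and 4.60 and 3.37 CPM in FvVND4c controls, and 5.95 and 5.68 CPM in FvMYB46 fruits and 4.45 and 3.58 CPM in FvMYB46 controls. The FvVND4c libraries were the lowest by more than the spread of any group, and both control groups had nearly the same level. The fitted log2 fold change of FvVND4c fruits was -2.29 (SE 0.38) against their own controls and -2.36 (SE 0.37) against the FvMYB46 controls.

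*FvH4_3g22710* (chromosome 3, 15719601-15721796, minus strand) had 0.946 and 1.02 CPM in FvVND4c fruits and 2.98 and 3.28 CPM in FvVND4c controls, and 3.36 and 2.63 CPM in FvMYB46 fruits and 5.48 and 3.04 CPM in FvMYB46 controls. *FvH4_6g10360* (chromosome 6, 6184385-6186111, plus strand) had 0.860 and 0.922 CPM in FvVND4c fruits and 3.61 and 2.52 CPM in FvVND4c controls, and 2.84 and 4.24 CPM in FvMYB46 fruits and 2.06 and 4.36 CPM in FvMYB46 controls. The FvVND4c fruits were below the 6 other libraries in both genes, although the FvMYB46 controls spread widely. Against the FvMYB46 controls, the fitted log2 fold change was -2.04 (SE 0.37) for *FvH4_3g22710* and -1.81 (SE 0.47) for *FvH4_6g10360*. Against their own controls it was -1.55 (SE 0.38) for *FvH4_3g22710* and -1.66 (SE 0.48) for *FvH4_6g10360*. Against its own controls *FvH4_6g10360* was not called (edgeR, adjusted p 0.0578). There *FvH4_3g22710* was called by edgeR (adjusted p 0.028) but not by DESeq2 (adjusted p 0.0709). In all 8 edgeR fits that left out a library, the fold against the FvMYB46 controls stayed negative for *FvH4_4g11721*, *FvH4_3g22710* and *FvH4_6g10360*. The call of *FvH4_6g10360* was lost in some of them. All of these genes were picked for low ratios against both controls, with the FvVND4c libraries below all 4 control libraries. The fits reuse the values on which the genes were picked, and are given as description only.

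These 3 genes and *FvH4_2g25320* were 4 of the 7 genes called lower against the FvMYB46 controls, and the other 3 were *FvH4_7g11550*, *FvH4_1g29941* and *FvH4_6g03120*, which are named because the count is small. *FvH4_7g11550* had 3.18 and 2.66 CPM in FvVND4c fruits and 7.85 and 7.57 CPM in FvVND4c controls, and 4.31 and 5.597 CPM in FvMYB46 fruits and 5.39 and 7.24 CPM in FvMYB46 controls. *FvH4_1g29941* had 2.15 and 0.922 CPM in FvVND4c fruits and 3.79 and 4.12 CPM in FvVND4c controls, and 2.93 and 3.31 CPM in FvMYB46 fruits and 4.62 and 4.05 CPM in FvMYB46 controls. *FvH4_6g03120* had 3.35 and 3.69 CPM in FvVND4c fruits and 8.75 and 7.83 CPM in FvVND4c controls, and 5.26 and 7.04 CPM in FvMYB46 fruits and 8.91 and 5.92 CPM in FvMYB46 controls. In all 3 the FvVND4c fruits were below every other library. Their fitted log2 fold changes against the FvMYB46 controls lay between -1.40 for *FvH4_1g29941* and -1.01 for *FvH4_6g03120*.

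A further 3 genes were among the lowest against both controls at levels of a few CPM, without a call against the FvMYB46 controls. Against their own controls, edgeR called *FvH4_1g27361* (adjusted p 0.0401) and *FvH4_3g08980* (adjusted p 0.033) lower, but not *FvH4_5g35300* (adjusted p 0.0754). DESeq2 called none of them there. *FvH4_5g35300* averaged 0.309 ± 0.293 CPM in FvVND4c fruits and 1.40 ± 0.315 CPM in FvVND4c controls, and 1.28 ± 0.606 CPM in FvMYB46 controls (SD, n = 2 each). *FvH4_1g27361* averaged 0.524 ± 0.597 CPM in FvVND4c fruits and 2.62 ± 0.498 CPM in FvVND4c controls, and 1.81 ± 0.584 CPM in FvMYB46 controls. *FvH4_3g08980* averaged 1.15 ± 0.321 CPM in FvVND4c fruits and 3.82 ± 0.552 CPM in FvVND4c controls, and 3.11 ± 1.65 CPM in FvMYB46 controls. For *FvH4_1g27361* the FvVND4c libraries themselves differed widely, with 0.946 CPM in library 1 and 0.102 CPM in library 2.

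The most abundant gene of the list was *FvH4_4g33060* (chromosome 4, 31414372-31417239, plus strand). It had 234.7 and 220.8 CPM in FvVND4c fruits and 474.0 and 480.1 CPM in FvVND4c controls, and 425.9 and 443.8 CPM in FvMYB46 fruits and 348.6 and 421.8 CPM in FvMYB46 controls. The FvVND4c libraries were the lowest and lay well apart from the other 6. The fitted log2 fold change was -0.96 (SE 0.12) against their own controls, -0.71 (SE 0.12) against FvMYB46 controls and -0.25 (SE 0.12) between the controls, so that the gene met the limit on library totals but not the fold limit of the fit.

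*FvH4_3g36040* (chromosome 3, 30928975-30930109, plus strand) had 67.0 and 56.5 CPM in FvVND4c fruits and 124.0 and 125.5 CPM in FvVND4c controls, and 99.8 and 82.3 CPM in FvMYB46 fruits and 85.7 and 83.1 CPM in FvMYB46 controls. *FvH4_3g45860* (chromosome 3, 38028359-38032047, plus strand) had 51.0 and 42.4 CPM in FvVND4c fruits and 90.6 and 98.4 CPM in FvVND4c controls, and 63.1 and 69.6 CPM in FvMYB46 fruits and 79.0 and 75.1 CPM in FvMYB46 controls. In both genes the FvVND4c fruits were the lowest libraries and the FvVND4c controls the highest, with the FvMYB46 experiment between them. The fitted log2 fold change against the FvMYB46 controls was -0.40 (SE 0.11) for *FvH4_3g36040* and -0.67 (SE 0.11) for *FvH4_3g45860*. The span of *FvH4_3g45860* overlaps *FvH4_3g45850* on the opposite strand, and since it is not stated whether strand was used in counting, their reads cannot be told apart.

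Among the genes with the lowest ratios, several were nearly silent in FvVND4c fruits. *FvH4_1g03760* (chromosome 1, 2011258-2012675, minus strand) had 0 and 0.307 CPM in FvVND4c fruits and 3.52 and 2.95 CPM in FvVND4c controls, and 0.948 and 1.44 CPM in FvMYB46 fruits and 1.37 and 0.467 CPM in FvMYB46 controls. These were 3 counts in both FvVND4c libraries together and 74 in both controls. The level in the controls was 23.0 times that in the FvVND4c fruits (95% exact interval 7.56 to 114, counting error only). The gene was selected on this ratio, and the interval includes neither that selection nor the spread between libraries. *FvH4_6g17731* (chromosome 6, 11627260-11628235, minus strand) had no count in either FvVND4c library and 1.08 and 1.26 CPM in FvVND4c controls, and 0.259 and 0.424 CPM in FvMYB46 fruits and 0.257 and 0 CPM in FvMYB46 controls. With 3 counts over the group as the floor for the FvVND4c fruits, the 27 counts of their controls correspond to a level 8.38-fold lower in FvVND4c fruits. This value takes the control count as exact and does not include the selection on this ratio, so it is not a lower bound. Against the FvMYB46 controls, also at the floor, no fold is given.

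*FvH4_6g31420* (chromosome 6, 24561497-24565811, plus strand) had 0.860 and 0.819 CPM in FvVND4c fruits and 3.25 and 4.46 CPM in FvVND4c controls, and 1.72 and 1.53 CPM in FvMYB46 fruits and 2.14 and 1.87 CPM in FvMYB46 controls. The FvMYB46 experiment lay between both groups of the FvVND4c experiment. The fitted log2 fold change was -2.08 (SE 0.33) against the FvVND4c controls and -1.19 (SE 0.36) against the FvMYB46 controls. Genes of similar outline were *FvH4_6g52580*, with mean levels of 1.04 CPM in FvVND4c fruits, 4.44 CPM in FvVND4c controls and 2.19 CPM in FvMYB46 controls, and *FvH4_3g28040*, with 4.84 CPM in FvVND4c fruits, 16.0 CPM in FvVND4c controls and 8.74 CPM in FvMYB46 controls. *FvH4_1g26380* averaged 4.54 CPM in FvVND4c fruits, 14.4 CPM in FvVND4c controls and 8.36 CPM in FvMYB46 controls, and *FvH4_6g07930* averaged 3.78 CPM in FvVND4c fruits, 12.9 CPM in FvVND4c controls and 6.47 CPM in FvMYB46 controls. These last 4 genes were chosen after their values were seen, from the 18 with a ratio of -1.5 or lower.

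Over all 144 genes, the mean level in the FvMYB46 controls ranged from 0.0817 to 385.2 CPM. It was below 1 CPM for 44 genes, between 1 and 10 CPM for 83 and 10 CPM or more for 17, and no gene was without a count there. The 14 genes outside the edgeR fit were all low, with means in FvVND4c controls between 0.520 CPM in *FvH4_1g08290* and 2.11 CPM in *FvH4_2g02480*. Besides *FvH4_6g17731*, the genes without a count in FvVND4c fruits were *FvH4_3g11531*, *FvH4_1g02570*, *FvH4_4g15660*, *FvH4_6g53530* and *FvH4_1g08290*. By the same floor, with control counts taken as exact, their levels were between 3.73-fold (*FvH4_1g08290*) and 7.45-fold (*FvH4_3g11531*) lower in FvVND4c fruits than in their controls. These genes too were selected on this ratio, which the values do not include. In the FvMYB46 controls these 5 genes averaged 0.164 CPM for *FvH4_3g11531*, 0.257 CPM for *FvH4_1g02570*, 0.210 CPM for *FvH4_4g15660*, 0.296 CPM for *FvH4_6g53530* and 0.0856 CPM for *FvH4_1g08290*.

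At the limit of the selection, genes inside and outside had nearly the same values. The nearest inside were *FvH4_3g38660*, with means of 2.87 CPM in FvVND4c fruits, 6.25 CPM in FvVND4c controls and 3.62 CPM in FvMYB46 controls, and *FvH4_1g02112*, with means of 21.6 CPM in FvVND4c fruits, 43.8 CPM in FvVND4c controls and 32.7 CPM in FvMYB46 controls. The nearest outside were *FvH4_5g35070*, with means of 3.49 CPM in FvVND4c fruits, 7.47 CPM in FvVND4c controls and 5.93 CPM in FvMYB46 controls, and *FvH4_7g03170*, with means of 2.78 CPM in FvVND4c fruits, 6.05 CPM in FvVND4c controls and 3.79 CPM in FvMYB46 controls.

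The remaining comparisons place the FvMYB46 fruits. FvMYB46 fruits against FvVND4c controls gave 35 of the 130 genes called lower by edgeR, against 2.69% of all genes, with a median fitted log2 fold change of -0.83. The count was 22 without either FvVND4c control library, 18 without FvMYB46 library 1 and 17 without FvMYB46 library 2. For the difference of the responses, that is the FvVND4c change minus the FvMYB46 change on the log2 scale, 34 of the 130 were called lower, against 5.86% of all genes, with a median of -1.31. This count was 21 without FvVND4c control 1, 15 without FvVND4c control 2, 19 without FvVND4c library 2, 63 without FvMYB46 control 1, 18 without FvMYB46 library 1 and 14 without FvMYB46 library 2. The difference of the responses is negative for every gene of the list by the limits of the selection, so that nothing is read from this count.

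The selection was also made on the libraries of one replicate number and read in the other. Selected on the libraries numbered 1, 184 genes met the limits, and 66 of them (35.9%) had a FvVND4c ratio of -1 or lower in the libraries numbered 2, against 4.41% of all genes, with 173 below 0 and a median of -0.78. Selected on the libraries numbered 2, 573 genes met the limits, and 66 of them (11.5%) had a ratio of -1 or lower in the libraries numbered 1, against 2.18% of all genes, with 532 below 0 and a median of -0.45. In each direction 35 genes met both limits in the other libraries. Apart from the minimum of control counts, this is the same requirement read from either side and not a second result. Its share over all genes was not counted. The size of the list itself rested on single libraries, since it held 767 genes without FvVND4c library 1 and 275 without FvVND4c control 2. Genes of low counts vary more and pass such limits more often, and their part in these shares was not tested.

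The libraries of a group were not level in these genes. FvVND4c library 2 was below library 1 for 95 of the 130 fitted genes (73.1%, against 58.9% of all fitted genes). Library 2 was the lower one for 84 of the FvVND4c control pairs (64.6%, against 55.2%), 79 of the FvMYB46 pairs (60.8%, against 53.0%) and 100 of the FvMYB46 control pairs (76.9%, against 59.7%). FvVND4c library 2 was the one of lowest depth, and the part of this in the selection was not tested.

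The genes were spread over all 7 chromosomes. Chromosome 1 held 13 of them (9.03%, against 11.5% of all 21666 genes), chromosome 2 held 24 (16.7%, against 14.6%), chromosome 3 held 25 (17.4%, against 16.1%) and chromosome 4 held 18 (12.5%, against 13.1%). Chromosome 5 held 22 (15.3%, against 13.9%), chromosome 6 held 26 (18.1%, against 18.9%) and chromosome 7 held 16 (11.1%, against 11.6%). The plus strand carried 78 of them and the minus strand 66. For 30 of the genes another one started within 100 kb, and 12 lay in 4 runs of 3 genes, each starting within 100 kb of the next. How often as many other genes would lie so close was not tested. The strand share of all genes was not counted, so nothing is read from these numbers.

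The tightest run was on chromosome 6, between 27042814 and 27047865, where *FvH4_6g34261*, *FvH4_6g34262* and *FvH4_6g34263* followed each other on the minus strand with 73 and 26 bases between their spans. *FvH4_6g34261* had 6.88 and 3.89 CPM in FvVND4c fruits and 17.4 and 16.3 CPM in FvVND4c controls, and 8.45 and 6.95 CPM in FvMYB46 fruits and 9.08 and 8.80 CPM in FvMYB46 controls. *FvH4_6g34262* had 10.7 and 6.04 CPM in FvVND4c fruits and 28.2 and 22.1 CPM in FvVND4c controls, and 13.7 and 10.01 CPM in FvMYB46 fruits and 16.0 and 10.8 CPM in FvMYB46 controls. *FvH4_6g34263* had 5.25 and 3.07 CPM in FvVND4c fruits and 11.1 and 9.76 CPM in FvVND4c controls, and 4.57 and 4.24 CPM in FvMYB46 fruits and 5.74 and 4.59 CPM in FvMYB46 controls. In all 3 the FvVND4c controls were the highest libraries and FvVND4c library 2 the lowest. Their fitted log2 fold changes in FvVND4c fruits against their controls were -1.52 (SE 0.23) for *FvH4_6g34261*, -1.47 (SE 0.26) for *FvH4_6g34262* and -1.20 (SE 0.24) for *FvH4_6g34263*. All 3 were called by edgeR, *FvH4_6g34262* not without FvVND4c control 1 and *FvH4_6g34263* not without FvVND4c control 1 or FvVND4c library 2. Whether these adjacent gene models are separate transcripts was not tested. The 20 other genes within 100 kb had a median ratio of -0.12. None was at -1 or lower, but a gene there within both limits would have been counted in the run, so nothing is read from this.

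On chromosome 2, *FvH4_2g28740*, *FvH4_2g28730* and *FvH4_2g28750* lay between 22452769 and 22460412, with 220 and 618 bases between their spans, the first on the minus strand and the others on the plus strand. Mean levels of *FvH4_2g28740* were 2.76 CPM in FvVND4c fruits, 6.24 CPM in FvVND4c controls and 3.53 CPM in FvMYB46 controls, and those of *FvH4_2g28730* were 2.41 CPM in FvVND4c fruits, 6.37 CPM in FvVND4c controls and 4.14 CPM in FvMYB46 controls. *FvH4_2g28750* averaged 0.455 CPM in FvVND4c fruits, 1.47 CPM in FvVND4c controls and 0.705 CPM in FvMYB46 controls. Libraries of *FvH4_2g28740* spread widely, with 4.39 and 1.13 CPM in FvVND4c fruits and 7.94 and 4.54 CPM in FvVND4c controls. Of the 3 genes, *FvH4_2g28730* alone was called lower in FvVND4c fruits than in their controls by edgeR, and not without FvVND4c control 1, FvVND4c control 2 or FvVND4c library 2. The 19 other genes within 100 kb had a median ratio of -0.09. None was at -1 or lower, which again follows largely from how the runs were formed.

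On chromosome 5, *FvH4_5g34930*, *FvH4_5g34950* and *FvH4_5g34980* lay between 25558130 and 25573095 on the plus strand, and the other 2 genes between them were also low, all 5 having ratios between -1.5 and -0.92. *FvH4_5g34930* averaged 0.891 CPM in FvVND4c fruits, 3.43 CPM in FvVND4c controls and 1.81 CPM in FvMYB46 controls. *FvH4_5g34950* averaged 1.30 CPM in FvVND4c fruits, 3.15 CPM in FvVND4c controls and 1.66 CPM in FvMYB46 controls, and *FvH4_5g34980* averaged 1.896 CPM in FvVND4c fruits, 4.37 CPM in FvVND4c controls and 2.32 CPM in FvMYB46 controls. Of the 3 genes, edgeR called only *FvH4_5g34930* lower in FvVND4c fruits than in their controls, and not without FvVND4c control 2. The 23 other genes among them and within 100 kb had a median ratio of -0.26.

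On chromosome 3, *FvH4_3g03435*, *FvH4_3g03461* and *FvH4_3g03521* were spread over 75.8 kb between 1875960 and 1951778, with 7 other genes of sufficient counts among them, and the median ratio of these 10 genes was -0.62. *FvH4_3g03435* averaged 1.21 CPM in FvVND4c fruits, 2.93 CPM in FvVND4c controls and 1.70 CPM in FvMYB46 controls, and *FvH4_3g03461* averaged 7.43 CPM in FvVND4c fruits, 16.0 CPM in FvVND4c controls and 11.3 CPM in FvMYB46 controls. *FvH4_3g03521* averaged 1.38 CPM in FvVND4c fruits, 3.88 CPM in FvVND4c controls and 0.934 CPM in FvMYB46 controls. It was the one of these 3 with a higher mean in FvVND4c fruits than in FvMYB46 controls, and the one that edgeR called lower in FvVND4c fruits than in their own controls, though not without FvVND4c control 1, FvVND4c control 2 or FvVND4c library 1. The 34 other genes among them and within 100 kb had a median ratio of -0.32, between -0.88 and 1.05, the lowest of these medians in the 4 runs.

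**Figure D4:**
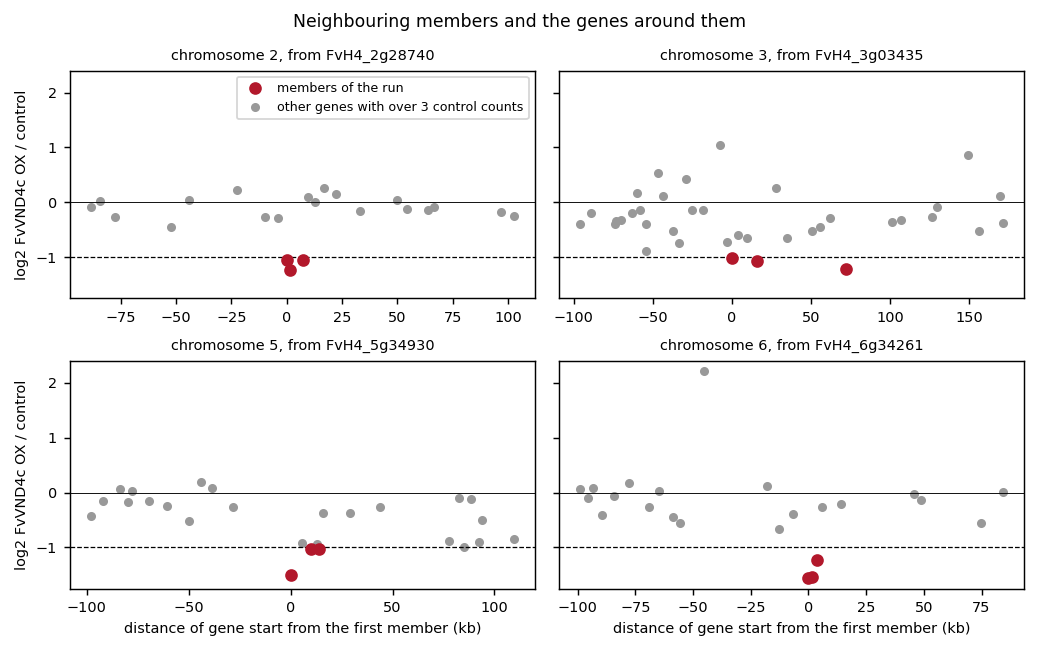
Log2 ratio of FvVND4c fruits to their controls for the genes of the 4 runs (red) and for the other genes starting within 100 kb that had more than 3 control counts (grey), by distance in kb of the gene start from the first gene of the run. The dashed line marks -1, and a gene there within both limits of the selection would be red, not grey. The 3 red points of chromosomes 2 and 6 lie together below grey neighbours that scatter near 0, while on chromosome 5 several grey points lie just above the line.

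In features that the selection did not use, the genes had a median span, introns included, of 2506 bases, against 3036 bases for all 21666 genes, and ranged from 213 to 16378 bases. The spans of 19 genes (13.2%, against 13.8% of all genes) overlapped another gene, and in 14 cases the other gene lay on the opposite strand. *FvH4_3g42561* and *FvH4_3g42570*, both on the plus strand of chromosome 3, overlapped each other and so may share reads. Identifiers that do not end in 0 belonged to 40 of the genes (27.8%, against 15.4% of all genes). These shares are descriptions, and how far they follow from the low level of the genes was not tested.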

How the data were processed

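The deposited files hold, for each of 8 libraries, whole-number counts of reads per gene, not normalised. The authors trimmed reads (fastp 0.20.1), aligned them to the v4.0.a2 genome (HISAT2 2.2.1), discarded PCR duplicates (SAMtools 1.9) and counted (featureCounts 2.0.3, R 4.2.2). The strand setting is not stated. TPM values, which the authors deposited for 17698 genes, equal the count over the gene span, introns included, rescaled within a library, and the filter behind them is not stated. 0 columns were left unmapped. Methods name more biological replicates than the labels list, and the 2 libraries listed per group were used.

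CPM used column sums. edgeR 4.0.16 (R 4.3.3, limma 3.58.1) was fitted to all 8 libraries in 4 groups with filterByExpr, TMM scaling and the quasi-likelihood test (18766 genes, common biological coefficient of variation 0.107). Standard errors were taken as the fold change over the square root of F and are approximate. The fit was tested on simulated data with the same spread in all groups, which cannot show how it behaves where spreads differ as here. DESeq2 1.42.0, other scalings and filters, a replicate block and leaving out each library served as alternatives. Intervals cover counting error only, and floors take the control count as exact.

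Genes given by identifier are, among the 130 fitted, the 6 lowest ratios with FvVND4c libraries below both of their controls, the 4 highest levels, the 6 lowest against both controls with FvVND4c libraries below all 4 control libraries and the 4 lowest in the FvMYB46 controls relative to the FvVND4c controls, all but the highest levels with a mean of at least 1 CPM in the controls concerned. Also given are the genes nearest the limit and the runs, and a few identifiers were added after their values were seen. The genes, lists and tests were chosen with earlier results of these data known.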

Additional observations from a re-analysis of the deposited data

How the results depend on the processing

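The list of 144 genes grew to 439 with a pseudocount of 0.1 (116 shared) and to 573 on the libraries numbered 2, and shrank to 83 with a pseudocount of 1 (69 shared) and to 47 against the mean of all 4 controls (42 shared), an alternative chosen after seeing the data. Leaving out single libraries gave 129 to 767 genes. Counts of called genes moved as follows, with the fold limit kept where p is unadjusted. For the alternatives, here and above, the share of all genes called is not given. A shift in these genes therefore cannot be told apart from a shift of the whole fit. FvVND4c against its control (70 genes) gave 118 with unadjusted p, 28 against the mean of all 4 controls (chosen after seeing the data), 36 with at least 10 counts in every library, 32 with DESeq2 and 22 to 100 without single libraries. FvMYB46 against its control (0) gave 0 to 1 without single libraries. FvMYB46 control against FvVND4c control (19) gave 40 with unadjusted p, 11 with at least 10 counts, 12 with DESeq2 and 7 to 44 without single libraries. FvVND4c against FvMYB46 control (7) gave 22 with unadjusted p, 2 with at least 10 counts, 3 on its 4 libraries alone, 3 with DESeq2 and 2 to 11 without single libraries. FvMYB46 against FvVND4c control (35) gave 19 with at least 10 counts, 23 with DESeq2 and 17 to 48 without single libraries. The difference of the responses (34) gave 78 with unadjusted p, 21 with at least 10 counts, 19 with DESeq2 and 14 to 63 without single libraries. A stricter count filter left 67 of the genes to be tested, and the cause of the other shifts was not tested.

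With the replicate number as a block, the count for the difference of the responses was 55, and that for FvVND4c against its control was 103. The numbers do not pair the libraries by the labels, and differences between libraries 1 and 2 correlated at 0.099 to 0.195 between groups.

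Among the fitted values of genes given by identifier, in 3 comparisons under all alternatives, 1192 kept their side of the threshold, 60 lost it, 37 gained it and none that was called changed sign. The 1192 include values that were not called and stayed so. They therefore do not measure how stable the calls were. Leaving out a library leaves a group with 1 library, which is assumed to vary like the others. At these depths, genes of about 1 CPM rest on about 10 counts per library, and most of the list is near that level.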
